A study of Mus musculus with 6 samples.

Results

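The genes described here are 8 of the neurotrophic factors and neurotrophic receptors of the brain. They comprise the neurotrophins Bdnf and Ntf3, the neurotrophin receptors Ntrk2 and Ntrk3, the ciliary neurotrophic factor Cntf with its receptor subunits Cntfr and Lifr, and the glial cell line-derived factor Gdnf. They were taken by gene symbol, with earlier results of these data known, and all 8 were among the 24421 genes listed in every library. Expression was measured by RNA-seq of total RNA from TurboRFP-positive cells of the adult mouse olfactory bulb, with 3 control and 3 Sox9 KO libraries, each labelled as olfactory bulb astrocytes. All 6 mice were male and carried the virus AAV-GFAP-iCre-P2a-TurboRFP in the bulb, in which the GFAP promoter, active in astrocytes, drives the recombinase Cre and the red fluorescent protein TurboRFP. KO mice were Sox9fl/fl, so that Cre removes the floxed part of Sox9, a transcription factor of the astrocyte lineage. Control mice were C57BL/6J with no floxed Sox9 allele, named Sox9+/+ in the study's methods. Cells were sorted 4 weeks after the injection straight into lysis buffer, and the study assessed their purity from cell type markers in the sequencing and not by a check after the sort.

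Neurotrophins are secreted proteins that bind receptor tyrosine kinases at the cell surface: BDNF binds TrkB, encoded by Ntrk2, and NT-3, encoded by Ntf3, binds TrkC, encoded by Ntrk3. Astrocytes are known for making mostly a short form of TrkB that keeps the BDNF-binding part and lacks the kinase. CNTF works by another route. It binds CNTFRα, encoded by Cntfr, a subunit held at the membrane by a lipid anchor, and this pair recruits LIFR and gp130, encoded by Lifr and Il6st, which signal through JAK kinases and STAT3. GDNF binds GFRα1 and signals through the kinase RET. In the olfactory bulb these factors are known for their part in the survival and growth of interneurons that arrive there throughout adult life.

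The libraries held between 18242129 and 86906527 reads on genes, so that 1 read was worth between 0.395 and 1.58 normalized counts, the unit of every level given here: a read count divided by 1 size factor per library. Sox9 itself read 5185, 6562 and 4921 normalized counts in the control libraries and 52.6, 64.3 and 57.7 in the KO libraries, so the KO mean was 1.05% of the control mean. The labelled cell type was checked against its markers. The summed level of 12 astrocyte markers ran from 456469 to 507071 in control libraries and from 32054.5 to 40920.2 in KO libraries, and the summed level of 12 microglia and macrophage markers ran from 173323 to 200850 and from 601594 to 702987. KO libraries therefore held more signal of microglia and macrophage markers than of astrocyte markers, against their label. All 12 astrocyte markers, 10 of 12 neuron markers, all 8 oligodendrocyte markers and all 6 oligodendrocyte precursor markers fell, as did 6 of 8 markers of olfactory ensheathing cells and 3 of 6 of mural cells. Of 6 endothelial markers 3 fell and 1 rose. All 12 microglia and macrophage markers rose, while none of the markers was at 0 in the KO group. In bulk RNA, fewer cells of a type and less RNA per cell cannot be told apart, and the part of this shift in the values below was not tested. Differences were called with limma at an adjusted p of 0.05 and 1.5-fold, and by that rule 51.0% of the 18413 genes tested were called, 28.8% lower in the KO group and 22.2% higher.

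The gene coordinates below are those of GENCODE M21 on the mouse build GRCm38 (mm10). Ntrk2 spans chr13:58806569-59133970 on the plus strand, Ntrk3 chr7:78175959-78738012 on the minus strand and Bdnf chr2:109674700-109727007 on the plus strand. Ntf3 spans chr6:126101412-126166910, Cntfr chr4:41657498-41697089 and Cntf chr19:12763660-12765632, each on the minus strand. Lifr at chr15:7090614-7197489 and Gdnf at chr15:7810846-7837575 lie on the same strand of the same chromosome with 613356 bases between them. Promoter sequences from RefSeq on GRCm38.p6 were matched for 7 of the 8 genes, 21 promoters in all, and the 250 bases before the start were searched. The letters ACAAT, the core of the motif that SOX proteins bind, were found on either strand in 6 of the 21 promoters and in 27.7% of all 32851 promoters of that length. The letters ACAAAG, a second common form of that core, were found in 1 of the 21 and in 16.5% of all, and TTCNNNGAA, the motif of STAT factors, in 1 of the 21 and in 7.02% of all. TGACGTCA, the motif of CREB, was in none of the 21 and in 1.55% of all, and TATAAA, the TATA box, was in 1 of the 21, a promoter of Gdnf, and in 12.4% of all. The search covered these letters on both strands and says nothing of binding. For 4 genes, 1 of the promoters listed is printed, because Ntrk2, Cntfr and Bdnf are the 3 best measured of the called genes matched here and Lifr is the receptor that was not called. For Bdnf and Lifr it is the one with the most matches, chosen for them, while 5 of the 7 Bdnf promoters and 1 of the 2 Lifr promoters hold no ACAAT. For Ntrk2 a single promoter was listed, and none of the 6 of Cntfr holds a match. The sequence is on the gene's strand, ends at the base before the start, lies outside annotated exons, and carries ACAAT or its reverse complement ATTGT in capitals.
Ntrk2, chr13:58806319-58806568, plus strand: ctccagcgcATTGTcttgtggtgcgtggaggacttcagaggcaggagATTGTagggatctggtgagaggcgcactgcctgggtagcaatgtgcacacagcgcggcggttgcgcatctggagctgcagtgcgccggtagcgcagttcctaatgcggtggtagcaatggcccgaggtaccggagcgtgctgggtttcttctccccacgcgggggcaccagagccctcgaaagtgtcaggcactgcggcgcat
Bdnf, chr2:109709133-109709382, plus strand: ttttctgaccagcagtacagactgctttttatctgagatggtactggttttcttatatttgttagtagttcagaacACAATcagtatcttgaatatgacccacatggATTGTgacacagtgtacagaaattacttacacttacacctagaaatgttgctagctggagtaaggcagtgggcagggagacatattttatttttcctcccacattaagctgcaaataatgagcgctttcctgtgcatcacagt
Cntfr, chr4:41696038-41696287, minus strand: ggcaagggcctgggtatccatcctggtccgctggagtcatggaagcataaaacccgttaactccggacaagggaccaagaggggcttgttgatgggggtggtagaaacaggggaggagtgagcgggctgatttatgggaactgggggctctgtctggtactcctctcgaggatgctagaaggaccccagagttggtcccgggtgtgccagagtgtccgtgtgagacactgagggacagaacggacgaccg
Lifr, chr15:7140292-7140541, plus strand: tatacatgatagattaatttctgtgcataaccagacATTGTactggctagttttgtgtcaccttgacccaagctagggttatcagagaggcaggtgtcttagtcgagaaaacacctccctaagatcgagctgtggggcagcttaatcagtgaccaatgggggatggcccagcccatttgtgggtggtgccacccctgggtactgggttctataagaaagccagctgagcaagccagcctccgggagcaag
In the Ntrk2 promoter the matches begin 241 and 203 bases before the start and in the printed Bdnf promoter 174 and 143 bases before it. The printed Lifr promoter holds 1 match, 214 bases before the start, and the printed Cntfr promoter holds none. Called genes (Ntrk2, Bdnf and Gdnf) and uncalled genes (Lifr and Cntf) were thus found with ACAAT. Cntfr was called and held none. Ntrk3, also called, had no promoter listed and was not searched.

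Of the 8 genes, 7 had a mean of at least 1 normalized count and were tested, and Ntf3 was not. Both Trk receptors, Cntfr, Bdnf and Gdnf fell in the KO group, none rose, and Lifr and Cntf were not called. These 5 called genes are read against the 28.8% of all genes tested that were called lower. In each of the 5 the highest KO library lay below the lowest control library, as it did in 34.7% of all genes tested. The median log2 fold change of the 7 genes was -3.44, beside -0.07 for all genes tested.

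**Figure D1:**
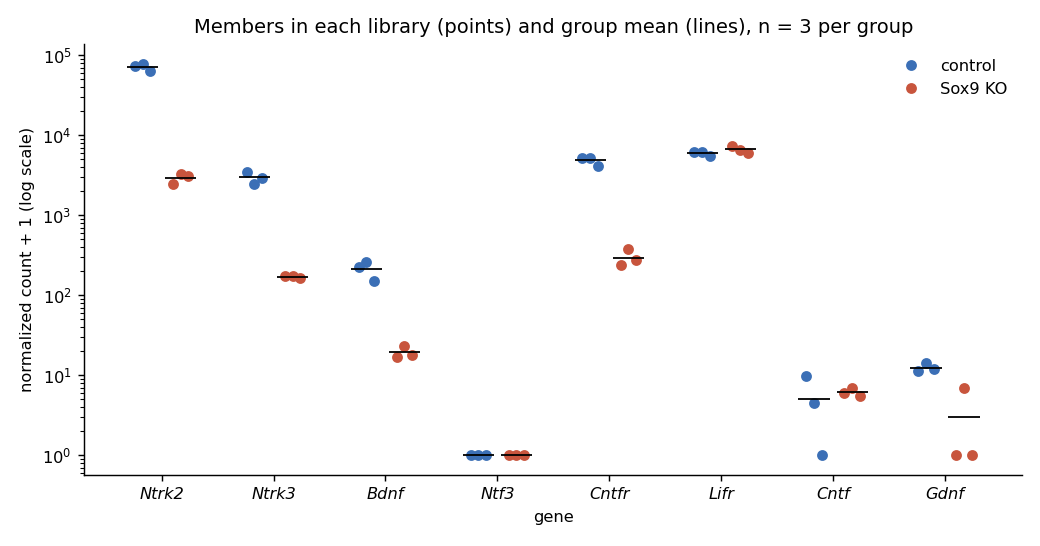
Normalized count + 1 on a log axis for each of the 8 genes, with 1 point per library and a line at the group mean (3 libraries per group). Ntrk2, Ntrk3, Bdnf, Cntfr and Gdnf separate by group, Lifr and Cntf overlap, and Ntf3 is at 0 in all 6 libraries.

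Ntrk2, the receptor of BDNF, was the most abundant of the 8 genes in the control group. It read 73509.6, 78460.1 and 62569.7 normalized counts in the control libraries and 2444, 3241 and 3104 in the KO libraries. The lowest control library stood far above the highest KO library. The means were 71513 ± 8131 and 2930 ± 426 normalized counts (SD, n = 3 each), a 24.4-fold difference that left the KO group at 4.10% of the control level. The log2 fold change was -4.61 (SE 0.13, adjusted p = 4.4e-09, limma), which ranked 162 among the falls of the 18413 genes tested. Per kilobase of exon, Ntrk2 stood in the top 1.01% of genes in the control group and in the top 34.2% in the KO group. Its log2 fold change was -5.28 under quantile normalization, a larger fall by over 1.5-fold, and -4.49 in the smallest case.

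Ntrk3, the receptor of NT-3, was expressed at a lower level and fell with Ntrk2. The control libraries read 3504, 2485 and 2889 normalized counts and the KO libraries 172, 171 and 161. Here the KO libraries lay close together and the control libraries spread more, with no overlap. The means were 2960 ± 513 and 168 ± 5.97 normalized counts (SD, n = 3 each), a 17.6-fold difference. Its log2 fold change was -4.12 (SE 0.14, adjusted p = 1.0e-08, limma). Both Trk receptor genes have long and short annotated forms, the short ones without the kinase: Ntrk2-201 and Ntrk2-202 hold 821 and 476 codons, and Ntrk3-201 and Ntrk3-202 hold 825 and 612. The values count reads per gene, so they do not separate these forms.

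The balance between the Trk receptors was computed within each library. There were 20.98, 31.6 and 21.7 normalized counts of Ntrk2 for each of Ntrk3 in the control libraries, and 14.2, 19.0 and 19.3 in the KO libraries. Every KO library lay below every control library. The log2 ratio differed by -0.50 between the groups (exact permutation test, two-sided, p = 0.1, adjusted p = 0.1 over 4 ratios). With 3 libraries against 3, 0.1 is the smallest p that this test can give, so a difference past 0.05 could not be shown. Ngfr, which encodes the low-affinity receptor p75 shared by the neurotrophins, fell from 1056 ± 134 to 109 ± 22.5 normalized counts (log2 fold change -3.28, SE 0.19).

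Bdnf, the ligand of TrkB, was rare beside its receptor. It read 225, 261 and 148 normalized counts in the control libraries, from 154, 379 and 94 reads, and 15.9, 22.1 and 16.7 in the KO libraries, from 16, 56 and 11 reads. All KO libraries were far below the lowest control library, the third, and the control libraries spread more than those of the receptors. The means were 211 ± 57.6 and 18.2 ± 3.38 normalized counts (SD, n = 3 each), an 11.6-fold difference. On the log2 scale the fold change was -3.44 (SE 0.32, adjusted p = 5.6e-06, limma), and it ran from -3.76 to -2.70 over the alternatives. In the annotation, 14.4% of the exonic bases of Bdnf are shared with an antisense gene, Gm45346, and no source used here says whether the counting used strand. Ntf3, the ligand of TrkC, had 0 reads in all 6 libraries. A count of 0 allows up to 3 reads, or between 1.18 and 4.73 normalized counts by library, in counting error alone. It was therefore not detectable at this depth in either group.

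Cntfr, the subunit that binds CNTF, fell about as far as the Trk receptors. It read 5227, 5239 and 4123 normalized counts in the control libraries and 234, 371 and 273 in the KO libraries. The groups were far apart, and the highest KO library was the second. The means were 4863 ± 641 and 293 ± 70.7 normalized counts (SD, n = 3 each), a 16.6-fold difference. The log2 fold change was -4.07 (SE 0.17, adjusted p = 3.0e-08, limma). Per kilobase of exon, Cntfr stood in the top 2.57% of genes in the control group and in the top 41.1% in the KO group.

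Lifr, the receptor subunit that CNTF shares with LIF, did not pass the test. It read 6209, 6129.7 and 5430.1 normalized counts in the control libraries and 7372, 6537 and 6031 in the KO libraries. The groups overlapped, since the third KO library lay below the first and second control libraries. The means were 5923 ± 429 and 6647 ± 677 normalized counts (SD, n = 3 each). The log2 fold change was 0.16 (SE 0.10, 95% interval -0.06 to 0.39, adjusted p = 0.184, limma), an interval within 1.5-fold in both directions. Its sign depended on the scaling: it was -0.08 with the libraries set to the same total, -0.16 with the same total without the ribosomal Rn45s, and -0.26 under quantile normalization (adjusted p = 0.0297), where it passed the adjusted p and stayed within 1.5-fold. In rank, Lifr was in the top 10.6% of genes per kilobase in the control group and in the top 11.1% in the KO group.

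The subunits of the CNTF receptor were also compared within each library. The control libraries held 0.842, 0.855 and 0.759 normalized counts of Cntfr for each of Lifr, and the KO libraries 0.0318, 0.0568 and 0.0453. For each normalized count of Il6st, the gene of gp130, there were 0.411, 0.465 and 0.376 of Cntfr in the control libraries and 0.00967, 0.0140 and 0.0123 in the KO libraries. Lifr per Il6st was 0.488, 0.544 and 0.495 in the control libraries against 0.304, 0.247 and 0.271. None of the 3 ratios overlapped between the groups. They are not independent, since Cntfr per Il6st is the product of Cntfr per Lifr and Lifr per Il6st. The log2 ratio differed by -4.23 for Cntfr to Lifr, by -5.13 for Cntfr to Il6st and by -0.90 for Lifr to Il6st, each at the smallest possible p (exact permutation test, two-sided, p = 0.1, adjusted p = 0.1). The ratios given per library do not depend on its size factor. The log2 ratios depend on it only through their pseudocount of 1.

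Cntf itself was at the limit of detection. It read 8.77, 3.44 and 0 normalized counts in the control libraries, from 6, 5 and 0 reads, and 4.96, 5.92 and 4.56 in the KO libraries, from 5, 15 and 3 reads. The groups overlapped and the control libraries held both the highest and the lowest value. Its fitted log2 fold change was 0.80 (SE 0.83, 95% interval -1.05 to 2.66, adjusted p = 0.427, limma), and it was -0.11 without control replicate 3, the library with no read. In the annotation, 78.9% of the exonic bases of Cntf are shared with Zfp91, a gene on the same strand that encodes a zinc finger protein. Zfp91 read 2189.7 ± 79.5 normalized counts in the control group and 2916 ± 94.2 in the KO group (SD, n = 3 each, log2 fold change 0.41, not called). No source used here says how reads over both genes were counted, so the level of Cntf is uncertain. The joint transcript listed as Zfp91Cntf was at 0 in all 6 libraries.

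Gdnf was near the limit as well. It read 10.2, 13.1 and 11.03 normalized counts in the control libraries, from 7, 19 and 7 reads, and 0, 5.92 and 0 in the KO libraries, from 0, 15 and 0 reads. The control libraries were close together, and only the second KO library, the most deeply sequenced of the 6, held any read. The log2 fold change was -2.70 (SE 0.81, 95% interval -4.51 to -0.89, adjusted p = 0.0148, limma). Its size followed the pseudocount: it was -4.87 with a pseudocount of 0.1 and -1.34 with 5. The call was lost with edgeR (adjusted p = 0.116), with DESeq2 (adjusted p = 0.124) and under quantile normalization (adjusted p = 0.0572). It was also lost without control replicate 2 (adjusted p = 0.0550), without KO replicate 1 (adjusted p = 0.0524) and without KO replicate 3 (adjusted p = 0.0625), with log2 fold changes between -2.61 and -2.24. With a minimum mean of 10 normalized counts the gene was not tested.

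**Figure D2:**
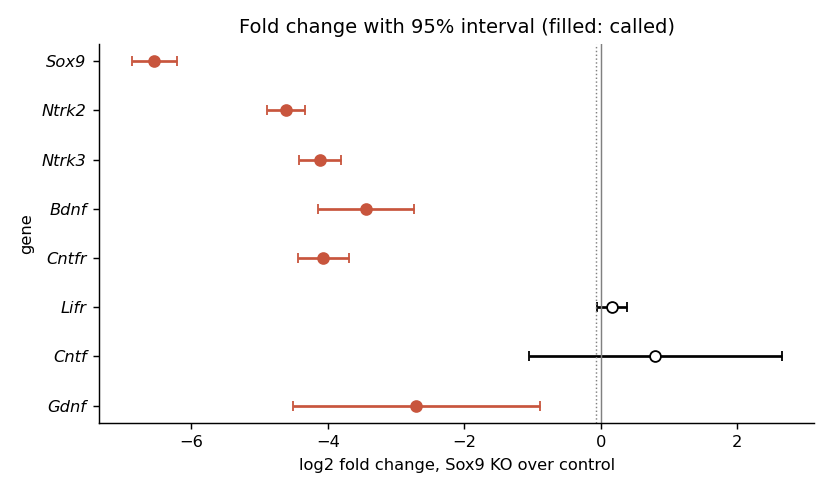
Log2 fold change of Sox9 and of the 7 tested genes, KO over control, with the 95% interval from limma as the bar (3 libraries per group). Filled points were called, and the dotted line marks the median of all genes tested at -0.07. Sox9 (-6.54), Ntrk2, Ntrk3, Bdnf and Cntfr lie well below 0, Gdnf has a wide interval below 0, and the intervals of Lifr and Cntf include 0.

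Levels were compared between genes per kilobase of annotated exon, a scale that understates genes with many annotated forms such as Ntrk3. In the control group the order of the means was Ntrk2 (3707 normalized counts per kilobase), Cntfr (1748), Lifr (549.6), Ntrk3 (98.1), Bdnf (34.0), Cntf (3.79), Gdnf (3.12) and Ntf3 (0). Among these neighbours in the order, only Cntf and Gdnf overlapped between libraries. In the KO group the order was Lifr (617 normalized counts per kilobase), Ntrk2 (152), Cntfr (105), Ntrk3 (5.57), Cntf (4.80), Bdnf (2.93), Gdnf (0.54) and Ntf3 (0). Lifr stood apart at the top, whereas Ntrk2 overlapped with Cntfr, Ntrk3 with Cntf, and Gdnf with Ntf3. The leading gene of the group was thus the BDNF receptor in control libraries and the shared LIF receptor in KO libraries.

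Since the astrocyte markers fell by 13.4-fold as a sum, each gene was also set beside them. The sum leans on its most abundant marker, the glutamate transporter gene Slc1a2. That gene held 258895 of 482115 normalized counts on average in the control group and 13677 of 35938 in the KO group. Single astrocyte markers had log2 fold changes from -5.25 for Fgfr3 to -2.72 for Slc1a3, with a median of -3.85. Ntrk2 had a lower log2 fold change than 11 of the 12 markers, Ntrk3 and Cntfr than 7 and Bdnf than 4. Ntrk2 stood at 148 ± 9.56 per 1000 normalized counts of summed astrocyte markers in the control group and at 81.5 ± 6.72 in the KO group (SD, n = 3 each), which is 0.551 of the control level with no overlap. On this scale Ntrk3 was 6.16 ± 1.19 and 4.72 ± 0.60, and Cntfr was 10.1 ± 0.93 and 8.08 ± 0.91. Both overlapped between the groups. Bdnf was 0.435 ± 0.099 and 0.505 ± 0.031 and overlapped too. Lifr was 12.3 ± 0.51 and 188 ± 37.3, which is 15.3 times the control level, and Sox9, as the targeted gene, 11.5 ± 1.26 and 1.62 ± 0.045. The level of Lifr itself was not called, while the marker sum below it fell. Cntf and Gdnf, both on few reads, stood at 17.3 and 2.03 times the control level on this scale. These are descriptions with no test, and they show how far each gene moved beside markers that moved too. The genes were set beside astrocyte markers only. Summed neuron markers also fell, by 6.39-fold, and oligodendrocyte precursor markers by 9.43-fold, while microglia and macrophage markers rose by 3.65-fold. Which cells the reads of each gene came from was not tested. The change in cell make-up and a change within astrocytes or other cells cannot be told apart.

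**Figure D3:**
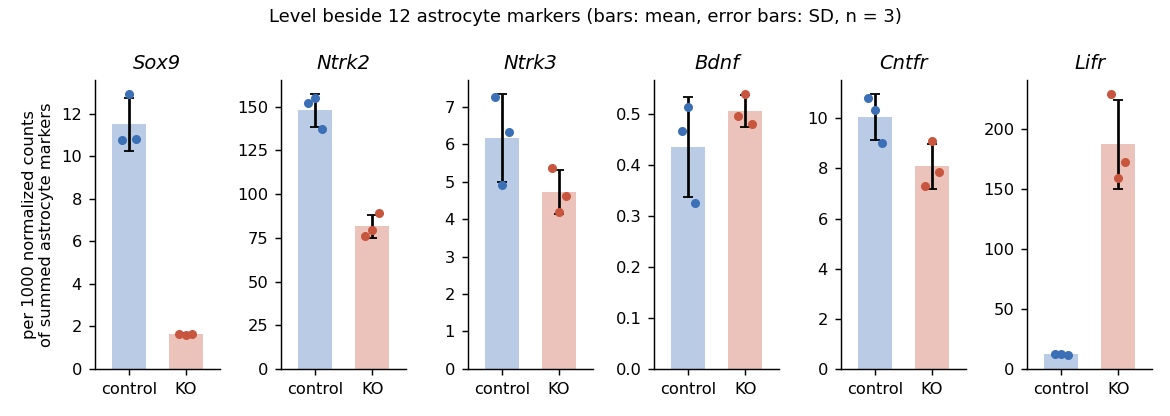
Normalized count per 1000 normalized counts of 12 summed astrocyte markers for Sox9 and 5 of the genes, each panel with its own linear axis from 0; bars are group means, error bars SD and points the 3 libraries of each group. Sox9 and Ntrk2 are lower in KO libraries, Ntrk3, Cntfr and Bdnf overlap between groups, and Lifr is higher.

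For each tested gene, the other gene with the most similar profile was found as the smallest Euclidean distance between log2 levels over the 6 libraries, after each gene's mean was subtracted. For Ntrk2 it was Gpr37l1, a receptor gene of glia, at a distance of 0.16 (19413.6 ± 2692 and 776 ± 141 normalized counts). For Ntrk3 it was Gli3, a transcription factor of the hedgehog pathway, at 0.26 (1327 ± 247 and 72.0 ± 3.16). For Cntfr it was Pcdh10, a protocadherin, at 0.11 (7067 ± 760.3 and 439.9 ± 99.0). For Bdnf it was Ehd3, which encodes a protein of endosomal traffic, at 0.27 (1508 ± 264 and 136 ± 30.8). The low genes had no close match: Dnajc22 was nearest to Gdnf at 0.58 (13.9 ± 3.21 and 1.58 ± 2.74) and Gckr to Cntf at 0.58 (3.32 ± 3.005 and 4.95 ± 1.22). The match of Lifr was Nenf at 0.07 (235 ± 20.6 and 266 ± 21.2), where 6626 genes lay within a distance of 1, against 245 such genes for Ntrk2.

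Another 55 genes of the same pathways were taken from 8 lists written from general knowledge, with earlier results of these data known. Of these, 51 were tested, 25 fell, 11 rose and 15 were not called, with a median log2 fold change of -0.73, beside 28.8% lower and 22.2% higher among all genes tested. Among 7 ligands and processing enzymes of the neurotrophins, 4 fell and 1 rose. Pcsk6, a proprotein convertase, went from 1086 ± 102 to 26.0 ± 13.1 normalized counts (log2 fold change -5.49, SE 0.37), and Plat, the tissue plasminogen activator, from 1494 ± 234 to 590.03 ± 214 (log2 fold change -1.39, SE 0.24). Furin, the convertase that cleaves many growth factor precursors, rose by 0.83 on the log2 scale (SE 0.12), and was 0.51, no longer past 1.5-fold, with the same total without Rn45s. Among the receptors and co-receptors, 6 of 7 tested fell, with Kidins220, a scaffold of Trk receptors, at -1.07 (SE 0.08) and the sorting receptor Sorl1 at -0.63 (SE 0.08, or -0.58 and not called with edgeR). Sort1, the co-receptor of pro-neurotrophins, was not called at 0.29. Of 11 Trk adaptors, 4 fell, 2 rose and 5 were not called. Gab1, a docking protein, went from 3503 ± 208 to 1559 ± 260.5 normalized counts, whereas Frs2 (log2 fold change 0.43) and Sos1 (0.39) were not called.

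Of 6 receptors listed for GDNF and its relatives, 5 were tested and all 5 fell, with a median log2 fold change of -2.57, beside 28.8% of all genes tested called lower. Gfra3 was below the minimum mean and was not tested, and Gfra4 had the smallest fall, from 23.1 ± 8.33 to 9.06 ± 3.11 normalized counts (adjusted p = 0.0447, limma), on 63 and 44 reads per group. Gfra1, the subunit that binds GDNF, read 693, 1085 and 1031 normalized counts in the control libraries and 134, 175 and 155 in the KO libraries. Its log2 fold change was -2.57 (SE 0.20). Ret, the signalling kinase, went from 127 ± 24.7 to 20.3 ± 8.99 normalized counts (log2 fold change -2.67, SE 0.39), Gfra2 from 1542 ± 203 to 94.6 ± 46.7 (-4.13, SE 0.31), and the neural cell adhesion molecule Ncam1 from 10947 ± 1039 to 2460.5 ± 979 (-2.23, SE 0.24). The ligand list, which also held the unrelated factors Manf and Cdnf, had 1 of 4 tested genes called higher and none lower. Among all genes tested, 22.2% were called higher. Manf rose by 0.63 on the log2 scale (SE 0.16), and was not called with the same total (0.39), with the same total without Rn45s (0.31) or without KO replicate 1 (0.48). Artn had a log2 fold change of -1.71 and Cdnf of 0.85, and neither was called.

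The genes of the gp130 route moved both ways. Il6st, the gp130 gene, read 12716.5, 11273 and 10963 normalized counts in the control libraries and 24228, 26441 and 22288 in the KO libraries. Its log2 fold change was 1.06 (SE 0.10), and 0.44 under quantile normalization, where it was not called. Il6ra, the receptor subunit for IL-6, rose by 2.26 (SE 0.12) and Osmr, the receptor subunit for oncostatin M, fell by 2.91 on the log2 scale (SE 0.39). Among 7 tested cytokines 3 fell and 1 rose, and Clcf1, another ligand of the CNTF receptor, was not called (129 ± 27.7 and 204 ± 68.7 normalized counts, log2 fold change 0.62). Lif, the ligand of LIFR, read 472, 502 and 515 normalized counts in the control libraries and 23.8, 8.29 and 9.11 in the KO libraries. The groups were far apart, with a log2 fold change of -5.23 (SE 0.37), while Osm, the gene of oncostatin M, went from 752 ± 48.0 to 4449 ± 787.5 normalized counts (2.55, SE 0.13). Of 6 signalling genes, 4 rose and 1 fell. These counts are read against 28.8% of all genes tested called lower and 22.2% called higher. Socs3, the feedback inhibitor induced by STAT3, rose by 1.75 (SE 0.13) and the kinase Jak1 by 0.80 (SE 0.08), whereas Stat3 was not called at -0.42. Jak1 was not called under the 3 other scalings (0.36 to 0.56) and Stat3 was called lower under them (-0.84 to -0.66). The genes that rose here were measured in libraries whose summed microglia and macrophage markers were 3.65 times the control level, and the part of those cells in the values was not tested.

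**Figure D4:**
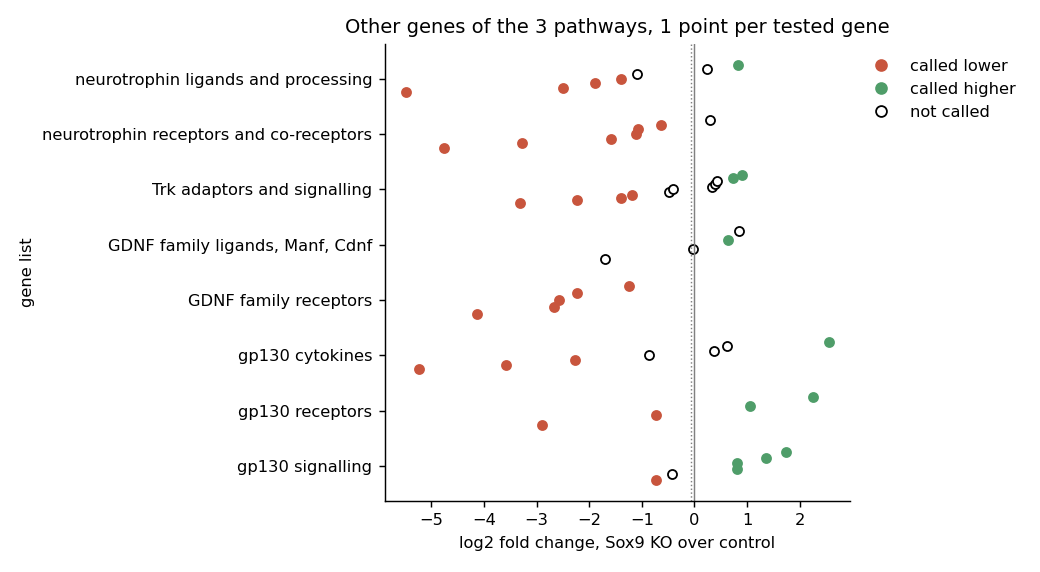
Log2 fold change, KO over control, of the 51 tested pathway genes in 8 lists, with 1 point per gene (3 libraries per group). Colour marks genes called lower or higher, open points were not called, and the dotted line is the median of all genes tested. All 5 tested genes listed as GDNF family receptors, Ncam1 among them, lie below 0. The gp130 receptors and signalling genes lie on both sides.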

How the data were processed

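RNA-seq covered 3 control and 3 Sox9 KO libraries, 1 per mouse. Reads were mapped to mm10 by the authors with STAR 2.5.0a, counted with GenomicAlignments and scaled with DESeq2 1.20.0. The deposited signal values carry the name RPM, yet each is a whole multiple of 1 step per library (within 0.01 read), as counts over a single size factor would be. They are called normalized counts. For KO replicate 1, whose step is near 1, the full digits of the values gave it. No source used here states the annotation, the strandedness or how reads shared by genes were treated.

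Genes with a mean of at least 1 (18413 tested, 6008 left out) were compared by limma 3.58.1 (R 4.3.3) after a log2 transform with a pseudocount of 1, using a variance trend and p-values adjusted by Benjamini-Hochberg over all genes tested. Fold changes are on that scale, and those of low genes depend on the pseudocount and are not always understated. For Cntf the fit gave 0.80, against 0.41 with edgeR and 0.35 with DESeq2. For Gdnf it gave -2.70, against -2.04 with edgeR and -2.30 with DESeq2. Calls needed an adjusted p under 0.05 and a 1.5-fold difference. The floor for a count of 0 was 3 reads per library, which covers counting error only. Alternatives were pseudocounts of 5 and 0.1, no filter and a minimum mean of 10, other scalings, no trend, a replicate block, edgeR 4.0.16 and DESeq2 1.42.0 on the recovered reads, the unadjusted p, no fold limit, and each library left out in turn. The tests were checked on simulated data in which far fewer genes changed than here. That check does not cover shifts as wide as these. Exon lengths came from GENCODE M21, which held 95.6% of the symbols.

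The 8 genes and the pathway and marker lists were chosen with earlier results of these data known. Also named are Sox9, the receptor partners Il6st, Ngfr, Gfra1 and Ret, the 3 genes with the highest mean in each pathway list, and the nearest profile of each tested gene. Other named genes (Zfp91, Zfp91Cntf, Gfra3, Gfra4, Fgfr3, Slc1a2, Slc1a3, Rn45s) are not covered by that rule and were picked with their values in view. The values of 1 gene that the rule names are not reported here.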

Additional observations from a re-analysis of the deposited data

How the results depend on the processing

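The log2 fold changes of Ntrk2, Ntrk3, Bdnf and Cntfr kept their direction and their call under every alternative run for them, and Gdnf kept its direction and lost its call under those named above, so that 4 or 5 of the 8 genes were called lower. Lifr changed sign with the scaling (-0.079 with the same total, -0.16 without Rn45s, -0.26 under quantile normalization), as did Sort1 (-0.036 with the same total without Rn45s, -0.11 under quantile normalization) and Nenf (-0.060 with the same total, -0.14 without Rn45s). With single libraries left out, Cntf ran from -0.11 to 1.54 and Gckr from -0.014 to 1.37, the negative values without control replicate 3. Setting libraries to the same total moved the median of all genes tested by -0.23, leaving out Rn45s as well by -0.31, and quantile normalization by 0.27. The calls split into 5299 lower and 4090 higher as reported, 6191 and 2936 with the same total, 6596 and 2630 with the same total without Rn45s, and 4100 and 5380 under quantile normalization. The number of pathway genes called higher was 11 as reported, 7 with the same total and 5 without Rn45s. Leaving out 1 library gave between 4929 and 5129 genes lower and between 3819 and 4035 higher. The libraries of both groups carry the numbers 1 to 3, but same-numbered libraries did not deviate together (correlations -0.051, -0.013 and -0.013), so the numbers were not taken to pair them. With the replicate number as a block, 5227 genes were called lower and 4048 higher, the log2 fold change of Ntrk2 was -4.61, 5 of the 8 genes were called, and Artn gained its call (-1.71, adjusted p = 0.0321). Over all alternatives, calls were gained by Artn in 8, Clcf1 in 4, Stat3 in 3, Cdnf in 2 (1.71 under quantile normalization, 1.25 without KO replicate 1) and Nenf in 1. At this depth, Ntf3, Cntf and Gdnf lie at or near the floor of 3 reads, and the causes of these shifts were not tested. The libraries come from separate mice, and 3 per group limit every interval given.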

Other observations

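The genes around the 8 genes were counted as a description of the loci. Within 500 kb of them, 62 other genes were tested, of which 17 were called lower, 13 higher and 32 not called. That is 27.4% lower and 20.97% higher, beside 28.8% and 22.2% of all genes tested. Around Ntrk2, 0 of 8 neighbours were called lower and 4 were called higher, while around Ntrk3 6 of 8 were called lower and 1 higher. Ntf3, which had no reads, had 3 of 4 neighbours lower and none higher. For Cntfr it was 5 of 19 lower and 1 higher, and for Bdnf 1 of 7 lower and none higher. Of 4 neighbours each, Lifr had 2 lower and 1 higher, and Gdnf 1 lower and 1 higher. Around Cntf, 5 of 9 neighbours were called higher and none lower.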
